A study of Mus musculus with 12 samples.

Results

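The comparison described here sets dendritic cells (DC) after 6 h in poly(I:C) against untreated cells at 0 h. It was chosen by title and uses 4 of the 12 Affymetrix Mouse 430 2.0 arrays of a time course of 0, 1, 3, 6, 12 and 24 h, namely the 2 arrays at 6 h and the 2 at 0 h, each 6 h array paired with the 0 h array of the same experiment. All groups were C57BL/6 bone marrow cells from femurs and tibias, grown for 6 days in GM-CSF, a growth factor that drives marrow progenitors into DC. The labels give 10 ng/ml GM-CSF and 2.5 µg/ml poly(I:C), and the study's methods name larger amounts of both, which the signals cannot settle. The labels give the age of the mice as 3 to 4 months in one field and 8 to 10 weeks in another. According to the methods, each experiment began with the marrow of 1 mouse and the DC were selected for CD11c before treatment, so n = 2 experiments at each time, and this number limits the precision. No array holds cells kept for 6 h without poly(I:C), so its effect and that of time in culture cannot be told apart. In bulk RNA, a larger share of cells expressing a transcript and more transcript per cell cannot be told apart either.

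Poly(I:C) is a synthetic mimic of viral RNA duplexes. Endosomal TLR3 and the cytosolic helicases MDA5 (Ifih1) and RIG-I (Ddx58) bind such RNA and signal through the adaptors TRIF (Ticam1) and MAVS to interferon regulatory factors and NF-kB. These factors switch on type I interferons and cytokines, and the interferons released act back on the cells through their receptor, JAK kinases and STAT factors to raise a large set of antiviral genes. DC that receive such a signal mature, which means that they raise antigen presentation and co-stimulatory molecules and move to lymph nodes to activate T cells.

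The values are MAS5.0 signals, a brightness per probe set on a linear scale, and each array had been scaled to a trimmed mean of 500. The median signal of an array was between 70.9 and 91.4. Differences are given as log2(signal + 16) at 6 h minus 0 h, with the standard error (SE) of a limma fit on all 12 arrays, and a gene was called higher or lower at an adjusted p under 0.05. Adding 16 makes the difference of dim genes too small. The ratio of 3′ to 5′ signal of the control probe sets, a measure of RNA integrity, was 0.75 and 0.751 at 6 h for Gapdh in experiments 1 and 2, against 0.787 and 0.783 at 0 h. For Actb the ratio was 1.11 and 1.16 at 6 h, against 1.13 and 1.19 at 0 h. The 11 markers of DC grown in GM-CSF summed to 136424 and 134918 at 6 h, against 130143 and 116497 at 0 h. Of the 10 tested, Ccr7 was called higher and Clec10a lower, and Flt3, under the filter on low values, had 32.7 and 75.7 at 6 h, against 29.1 and 29.6 at 0 h. Itgax, which encodes CD11c, had 18481 and 20436 at 6 h, against 18780 and 18932 at 0 h, and the class II invariant chain Cd74 had 26170 and 26996 at 6 h, against 27562 and 23216 at 0 h. The 9 macrophage markers summed to 45774 and 42513 at 6 h, against 40270 and 37849 at 0 h, and of these the receptor kinase Mertk was called higher. Of 8 neutrophil markers, which summed to 22533 and 31027 at 6 h, against 19784 and 26044 at 0 h, most of the signal came from the collagenase Mmp8 (19718 and 28366 at 6 h). The lists for B cells, T cells, plasmacytoid DC, mast cells and erythroid cells each summed to under 800 on every one of the 4 arrays. Only 1, 1, 2, 1 and 2 of their genes passed the filter and were tested, and none was called. The mast cell gene tested, Gata2, had a difference of 0.88 in its brightest probe set, but another of its probe sets was called higher (1.14, adjusted p = 0.0455). The 6 natural killer cell markers summed to 1017 and 568 at 6 h, against 320 and 241 at 0 h, with Klrk1, the NKG2D receptor, called higher, while the defining marker Ncr1 had 21.7 and 18 at 6 h, against 30.8 and 30.6 at 0 h. The part of other cells in the results was not tested beyond these sums.

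At 6 h, 815 of 22519 probe sets were called higher than at 0 h (3.62%) and 438 were called lower (1.95%). Counted by gene, with the brightest probe set of each, 471 of 10985 genes were higher (4.29%) and 255 were lower (2.32%). The rises were larger than the falls, with a median log2 difference of 1.55 over the higher genes and -1.13 over the lower genes. Of the higher genes 385 differed at least 2-fold and 80 at least 8-fold, whereas 164 of the lower genes differed at least 2-fold and none reached 8-fold. The 6 h and 0 h arrays did not overlap for 461 of the higher and 252 of the lower genes, and all called genes moved the same way in both experiments. The calls were made from these same arrays, so both counts describe the called genes and are no separate support for the calls. With 2 arrays a side, the arrays of an unchanged gene can also stay apart, and that share was not counted over all genes tested. The median gene tested stood at -0.15, so a value near -0.15 is that of a typical gene. With each array centred on its median, 80.8% of the called probe sets were higher at 6 h, against 65% on the deposited scale. The balance of calls also depended on the arrays in the fit. With the 4 arrays alone, 1484 probe sets were higher and 2013 lower. Dropping a 24 h array turned the balance in the same way, with 1555 higher and 2140 lower when that of experiment 1 was dropped and 1563 and 2171 when that of experiment 2 was. Without the replicate block, which pairs arrays of 1 experiment, 350 were higher and 44 lower.

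**Figure D1:**
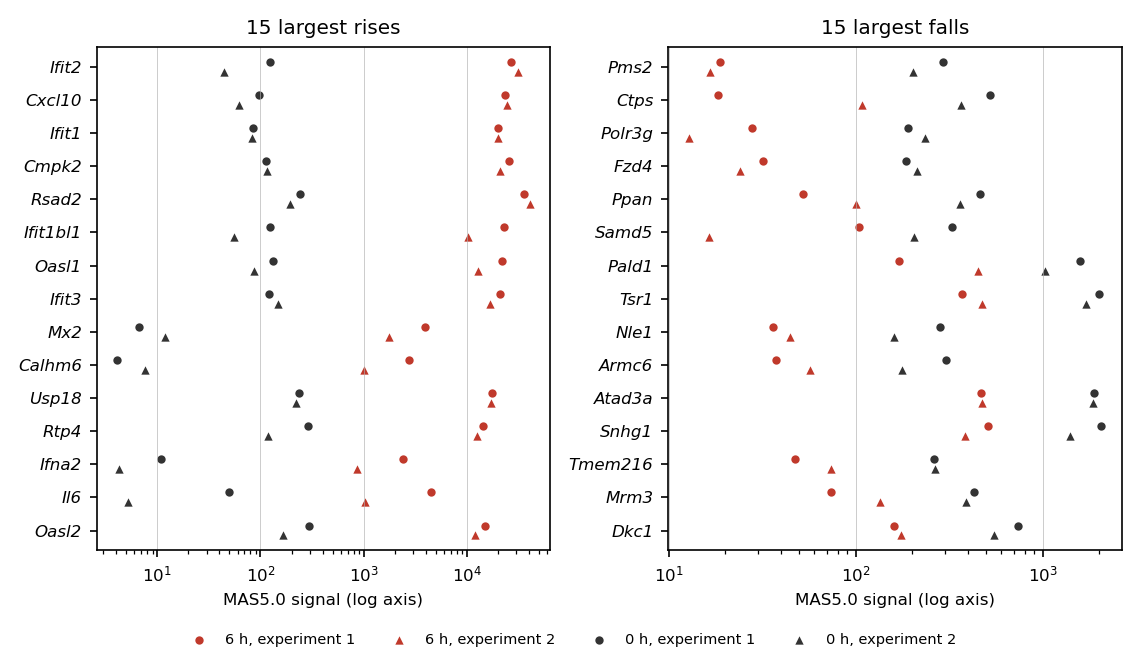
MAS5.0 signal on a log axis of the 15 genes with the largest rise (left) and the 15 with the largest fall (right) at 6 h against 0 h, with 1 point per array (circles, experiment 1, and triangles, experiment 2). The 6 h points of the rising genes lie far to the right of the 0 h points, as for Ifit2 with 26877 and 31350 at 6 h, against 123 and 44.8 at 0 h, while the falling genes differ by smaller steps and most reach signals under 200 at 6 h.

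The largest rise was that of Ifit2, an interferon-induced protein that blocks translation of viral RNA. Its signal was 26877 and 31350 at 6 h in experiments 1 and 2, against 123 and 44.8 at 0 h, a difference of 8.31 ± 0.33 (SE) on the log2 scale with an adjusted p of 5.24e-07. Cxcl10, a chemokine that draws T cells, had 23464 and 24530 at 6 h, against 96.8 and 61.3 at 0 h (8.01 ± 0.43, adjusted p = 2.06e-06). Ifit1, which binds viral RNA lacking a host cap, had 20294 and 19918 at 6 h, against 84.1 and 83.5 at 0 h (7.66 ± 0.27, adjusted p = 2.56e-07). All 3 transcripts were dim on both 0 h arrays and among the bright signals on both 6 h arrays. The other genes of the 15 largest rises were Cmpk2, Rsad2, Ifit1bl1, Oasl1, Ifit3, Mx2, Calhm6, Usp18, Rtp4, Ifna2, Il6 and Oasl2, and their log2 differences lay between 5.83 and 7.46. All 15 kept their call under all of the 21 alternative settings of the fit, which include leaving out each array.

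The antiviral effectors are proteins that act on viral RNA, capsids or budding in the cell. Of 28 such genes tested, 24 were called higher, where 4.29% of all genes tested were. The median log2 difference of the 28 was 3.38 against -0.15 for all genes tested. Rsad2, or viperin, which makes a chain-terminating nucleotide, had 35586 and 40818 at 6 h, against 243 and 193 at 0 h. Cmpk2, a nucleotide kinase encoded beside it, had 25557 and 20968 at 6 h, against 114 and 116 at 0 h, a rise of 7.46 ± 0.26 with an adjusted p of 2.56e-07. Ifit3, a partner of Ifit1, had 20807 and 16612 at 6 h, against 120 and 149 at 0 h (6.96 ± 0.24, adjusted p = 2.56e-07). Mx2, a dynamin-like GTPase, had 3959 and 1767 at 6 h, against 6.65 and 12 at 0 h. The 2',5'-oligoadenylate synthetase-like gene Oasl1, known in the mouse to restrain translation of Irf7, had 21946 and 12903 at 6 h, against 131 and 87.4 at 0 h. Its relative Oasl2 had 15123 and 12009 at 6 h, against 294 and 165 at 0 h. Rsad2 is measured by 3 probe sets, which gave log2 differences of 7.35, 7.83 and 8.21. Ifit and Oas genes have close relatives, so probes may bind the transcript of more than one of them.

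Among all genes tested 4.29% were called higher. All 9 interferon-inducible GTPases tested were called higher, with a median difference of 3.75. These proteins gather on membranes around microbes. The largest rise among them was that of Iigp1, with 10414 and 2186 at 6 h, against 135 and 66.7 at 0 h (5.42 ± 0.33, adjusted p = 4.32e-06). Ifi47 had 14488 and 11163 at 6 h, against 616 and 496 at 0 h (4.49 ± 0.17, adjusted p = 4.41e-07), and Irgm1, a regulator of the family, rose by 3.95 ± 0.17. Gbp2, a guanylate-binding protein, was the brightest at 6 h with 27946 and 20460, against 2887 and 2064 at 0 h. The 7 Schlafen genes tested, regulators of immune cell growth of which several cut RNA, were all called higher as well, with a median of 4.64. Slfn1 had 4671 and 4258 at 6 h, against 133 and 171 at 0 h, and Slfn5 had 9613 and 4953 at 6 h, against 313 and 159 at 0 h. Slfn2, bright at both times, had 19541 and 17472 at 6 h, against 7645 and 8513 at 0 h, the smallest rise of the family (1.19 ± 0.15, adjusted p = 0.0012). Of 12 PARP family genes tested with the partner ligase Dtx3l, 8 rose, among them Parp14 (3.58 ± 0.20) and Parp12 (2.72 ± 0.17), which attach ADP-ribose to proteins. Parp1, the DNA repair enzyme, was not called, with a log2 difference of -0.50. Of 17 TRIM ubiquitin ligases 8 rose, led by Trim30d (3.84 ± 0.20), Trim34a (2.81 ± 0.24) and Trim30a (2.71 ± 0.18).

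The RefSeq promoters of these genes, taken here as the 250 bases before the annotated start on mouse build GRCm38.p6, are shown for 5 of the 15 largest rises, picked because they hold the letters of the elements through which interferon regulatory factors, ISGF3 and NF-kB are known to act. Capitals mark each match to the interferon-stimulated response element (ISRE), searched on both strands as 2 copies of GAAA set 2 bases apart (TTTC and TTTC on the other strand), and to the kB element, searched on both strands as GGGA and TTTCC set 1 base apart (GGAAA and TCCC on the other strand).
Ifit1, chr19:34640639-34640888, plus strand: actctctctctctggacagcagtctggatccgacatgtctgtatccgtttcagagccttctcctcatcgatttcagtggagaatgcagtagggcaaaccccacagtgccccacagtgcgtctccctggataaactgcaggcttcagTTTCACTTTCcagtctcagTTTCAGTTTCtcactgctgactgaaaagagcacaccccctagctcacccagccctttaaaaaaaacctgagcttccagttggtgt
Ifit3, chr19:34583279-34583528, plus strand: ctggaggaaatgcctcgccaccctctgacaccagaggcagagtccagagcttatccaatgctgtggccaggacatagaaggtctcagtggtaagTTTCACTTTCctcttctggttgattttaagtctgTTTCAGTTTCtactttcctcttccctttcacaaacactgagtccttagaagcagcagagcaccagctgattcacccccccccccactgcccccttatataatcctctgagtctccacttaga
Rsad2, chr12:26456453-26456702, minus strand: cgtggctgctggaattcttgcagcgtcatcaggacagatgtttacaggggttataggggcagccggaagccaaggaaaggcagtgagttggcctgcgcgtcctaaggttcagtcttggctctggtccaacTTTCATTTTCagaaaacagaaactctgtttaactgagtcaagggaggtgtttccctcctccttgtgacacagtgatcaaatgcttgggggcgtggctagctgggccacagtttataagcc
Cxcl10, chr5:92348890-92349139, minus strand: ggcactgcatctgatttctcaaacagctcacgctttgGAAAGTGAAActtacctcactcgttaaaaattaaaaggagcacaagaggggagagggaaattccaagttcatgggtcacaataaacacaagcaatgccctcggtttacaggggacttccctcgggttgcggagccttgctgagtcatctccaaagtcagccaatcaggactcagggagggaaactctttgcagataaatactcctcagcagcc
Il6, chr5:30012864-30013113, plus strand: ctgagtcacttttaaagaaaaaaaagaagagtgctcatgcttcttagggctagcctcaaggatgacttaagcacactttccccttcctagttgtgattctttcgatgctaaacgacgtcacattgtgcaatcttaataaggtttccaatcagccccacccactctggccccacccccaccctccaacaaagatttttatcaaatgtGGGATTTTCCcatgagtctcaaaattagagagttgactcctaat

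Ifit1 and Ifit3 each held 2 ISRE matches, at 104 and 85 bases and at 156 and 122 bases before the start. Rsad2 held 1 at 120 bases and Cxcl10 1 at 213 bases, and Il6 held 1 kB match at 44 bases. Of the 15 largest rises 12 had a listed promoter, of which 7 held an ISRE match, 1 held a kB match and 4, those of Ifit2, Cmpk2, Oasl1 and Oasl2, held neither in windows that add the 50 bases after the start. Over these windows of 300 bases, an ISRE match was present in 3.44% of 32851 promoters of all genes. A promoter was listed for 8963 of the 10985 genes tested, and 3.88% of these held a match. It was present in 62 of 377 genes called higher (16.4%), in 25 of the 60 that rose at least 8-fold (41.7%) and in 8 of 212 genes called lower (3.77%). The kB letters were present in 0.411% of all promoters, in 0.547% of the genes tested and in 4 of the 377 genes called higher (1.06%). The E-box CACGTG, a site known for MYC and its partners, was present in 7.15% of all promoters, in 11.9% of the genes tested, in 17.9% of the genes called lower and in 9.55% of those called higher. These shares are descriptions of letters in a short window. The kB search used a single narrow pattern, so stretches of similar letters, as in the Cxcl10 promoter, were neither marked nor counted.

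Among the sensors of RNA duplexes and their adaptors, 8 of 17 genes tested were called higher, where 4.29% of all genes tested were. The median of the 17 was 0.71. Ifih1 had 21343 and 14498 at 6 h, against 613 and 559 at 0 h (4.87 ± 0.20, adjusted p = 6.21e-07). Dhx58, or LGP2, a helicase that modulates the other cytosolic sensors, had 6329 and 4243 at 6 h, against 211 and 318 at 0 h. Ddx58 had 10148 and 9012 at 6 h, against 588 and 679 at 0 h (3.89 ± 0.17, adjusted p = 6.33e-07). Thus all 3 cytosolic helicases of this class stood far above their 0 h signals in both experiments. Tlr3, the endosomal receptor, rose less, with 2070 and 981 at 6 h, against 114 and 185 at 0 h (3.16 ± 0.41, adjusted p = 0.00124), and its other probe set gave 3.36. Zbp1, a sensor of left-handed nucleic acid duplexes, rose by 2.81 ± 0.30 and the kinase PKR (Eif2ak2), which stops translation on binding such RNA, by 2.06 ± 0.34. The adaptors were not called, with differences of -0.37 for Mavs and -0.13 for Ticam1, nor were the kinases Tbk1 (0.55) and Ikbke (0.65).

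The interferon regulatory factors and STATs split in a like manner, with 4 of 14 called higher, where 4.29% of all genes tested were. Irf7, the factor that amplifies interferon-alpha production, had 10751 and 7614 at 6 h, against 284 and 196 at 0 h, a rise of 5.17 ± 0.31 with an adjusted p of 4.4e-06. Stat2, part of the ISGF3 complex that binds the ISRE, had 5471 and 4358 at 6 h, against 513 and 405 at 0 h (3.38 ± 0.17, adjusted p = 1.3e-06). Irf9, the DNA-binding part of that complex, rose by 1.79 ± 0.18 and Irf1 by 2.89 ± 0.28. Irf3, which is present before infection and is activated by phosphorylation, had 870 and 943 at 6 h, against 904 and 1244 at 0 h (-0.22 ± 0.22, adjusted p = 0.615), and its arrays overlapped.

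The interferons themselves were near background at 0 h. Ifnb1 had 4588 and 1875 at 6 h, against 32.6 and 48.4 at 0 h (5.72 ± 0.89, adjusted p = 0.00401), and it lost its call when either array of experiment 1, that at 6 h or that at 0 h, was dropped. Ifna2 had 2395 and 857 at 6 h, against 10.8 and 4.27 at 0 h, and Ifna4 had 1384 and 730 at 6 h, against 4.95 and 3.42 at 0 h. The signal of experiment 1 was the higher at 6 h for all 3 genes. Ifna5 was also called higher (3.19 ± 0.72, adjusted p = 0.0297), but not under 9 of the 21 alternatives. The interferon-alpha genes are close copies of each other, so their probe sets may share transcripts. The receptor chains Ifnar1 (0.46) and Ifnar2 (0.28) were not called, and of the JAK kinases Jak2 rose by 0.77 ± 0.15. Of 11 feedback inhibitors 2 were called higher, where 4.29% of all genes tested were, and both act on the interferon receptor. Usp18, a protease that also blocks the receptor, had 17519 and 16995 at 6 h, against 238 and 223 at 0 h (6.13 ± 0.17, adjusted p = 1.1e-07). Socs1, an inhibitor of JAK kinases, had 2617 and 2115 at 6 h, against 274 and 473 at 0 h.

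Of 15 inflammatory cytokines tested 8 were called higher, where 4.29% of all genes tested were. The median of the 15 was 1.31. Il6, a cytokine of fever and the acute phase, had 4463 and 1028 at 6 h, against 49.9 and 5.23 at 0 h (5.85 ± 0.40, adjusted p = 1.15e-05). Il12b, a chain of interleukins 12 and 23 that steer T cells, had 1700 and 683 at 6 h, against 50.2 and 50.5 at 0 h (4.05 ± 0.62). Il15, which sustains natural killer and memory T cells, had 3395 and 1249 at 6 h, against 80.6 and 164 at 0 h. Tnf was bright at both times and had 9257 and 8454 at 6 h, against 3221 and 2715 at 0 h (1.58 ± 0.24, adjusted p = 0.00323). Among 17 chemokines, 6 were called higher, and after Cxcl10 the largest rises were those of Ccl5 (4.55 ± 0.36), Cxcl9 (4.45 ± 0.78) and Cxcl11 (4.18 ± 0.40). Another probe set of Cxcl9 (2.43, adjusted p = 0.136) and another of Cxcl11 (1.93, adjusted p = 0.0835) were not called. Cxcl9 lost its call in 3 of the 21 alternatives. Ccl5, which attracts T cells and monocytes, had 24188 and 24146 at 6 h, against 1129 and 921 at 0 h. Cxcl9, a second ligand of the same receptor as Cxcl10, had 1320 and 172 at 6 h, against 7.06 and 6.78 at 0 h, so the experiments stood far apart. Chemokines that draw neutrophils were not called, with 0.18 for Cxcl1, 0.84 for Cxcl2 and 0.09 for Cxcl3. Of 6 TNF superfamily ligands 4 rose, led by Tnfsf10, the death ligand TRAIL, with 1036 and 479 at 6 h, against 53.6 and 66.3 at 0 h.

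Maturation genes rose in part. Of 14 co-stimulatory and checkpoint molecules 7 were called higher, where 4.29% of all genes tested were. The median of the 14 was 1.39. Cd40, the receptor for help from T cells, had 8303 and 3010 at 6 h, against 336 and 152 at 0 h (4.37 ± 0.40, adjusted p = 0.000102). Cd69, an early activation receptor that holds cells in tissue, had 13392 and 14140 at 6 h, against 312 and 308 at 0 h (5.40 ± 0.38). Cd86 rose less, with 4327 and 1944 at 6 h, against 1139 and 933 at 0 h (1.48 ± 0.23, adjusted p = 0.00427), and its fellow ligand Cd80 was not called (1.30 ± 0.39, adjusted p = 0.0826). Cd274, the inhibitory ligand PD-L1, had 13210 and 12625 at 6 h, against 2683 and 4349 at 0 h. Ccr7, the receptor that guides DC to lymph nodes, had 2185 and 375 at 6 h, against 272 and 149 at 0 h (2.09 ± 0.53, adjusted p = 0.0487), and it was not called under 13 of the 21 alternatives. Ccrl2, a chemokine-binding receptor, rose by 3.02 ± 0.35. Ccr2, the receptor of monocytes for inflammatory chemokines, fell, with 1939 and 1626 at 6 h, against 4353 and 2885 at 0 h (-0.99 ± 0.18, adjusted p = 0.0115), but none of its 3 other probe sets was called.

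Class I molecules present peptides from inside the cell and class II molecules those from ingested matter. Of 17 class I genes tested 9 were called higher, with a median of 0.72, and of 10 class II genes 1, with a median of 0.24. Among all genes tested 4.29% were higher and 2.32% lower. Tap1, a chain of the peptide transporter, had 7407 and 5044 at 6 h, against 1015 and 764 at 0 h (2.77 ± 0.15, adjusted p = 2.06e-06). Nlrc5, the transactivator of class I genes, had 5746 and 2608 at 6 h, against 643 and 330 at 0 h (3.02 ± 0.21), and Psmb9, a subunit of the immunoproteasome, rose by 1.90 ± 0.16. The heavy chain H2-K1, bright throughout, had 21974 and 26318 at 6 h, against 15604 and 20729 at 0 h, and was not called (0.42 ± 0.15, adjusted p = 0.149). The class II chain H2-Aa had 29480 and 21233 at 6 h, against 26420 and 17143 at 0 h (0.23 ± 0.20, adjusted p = 0.546), and its arrays overlapped. H2-Oa, a modulator of class II peptide loading, was the class II gene called (0.89 ± 0.21, adjusted p = 0.0373), though not under 13 alternatives. Of the 29 endocytic, lectin and scavenger receptors, Fcgr4 (2.36 ± 0.31), Fcgr1 (1.62 ± 0.20), Mertk (1.55 ± 0.25) and Clec4e (1.34 ± 0.17) rose, and the lectin Clec10a fell (-1.26 ± 0.29). The Fc receptor Fcgr3 and the CSF1 receptor Csf1r were not called, with differences of -0.16 and 0.25.

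**Figure D2:**
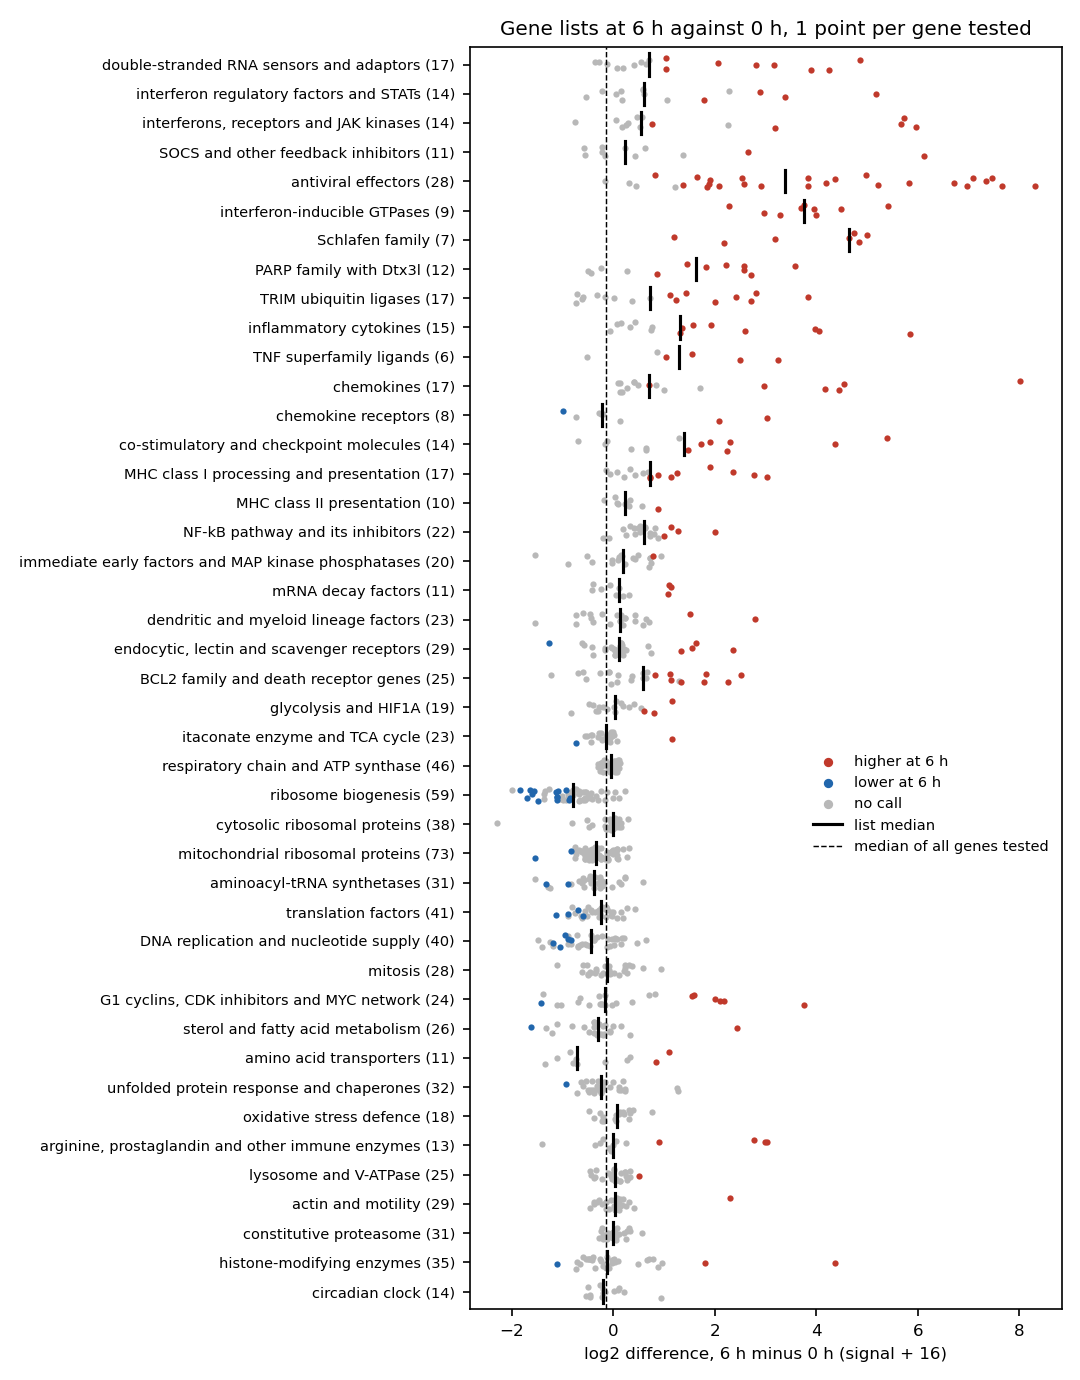
Log2 difference at 6 h minus 0 h of every gene tested in 43 gene lists, with the number tested in brackets (red, called higher, blue, called lower, grey, no call, black bar, list median, dashed line, median of all genes tested at -0.15). The Schlafen, GTPase and antiviral lists lie farthest to the right, with medians of 4.64, 3.75 and 3.38, and ribosome biogenesis lies farthest to the left with -0.80.

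NF-kB is the factor that drives most inflammatory genes. Of 22 genes of the pathway and its inhibitors 4 were called higher, with a median of 0.60. Their median log2 ratio of 6 h to 0 h was 0.78 in experiment 1 and 0.43 in experiment 2, against -0.16 and -0.13 for all genes tested. The largest rise was that of Nfkbiz, a nuclear cofactor for secondary response genes, with 1865 and 735 at 6 h, against 376 and 205 at 0 h (2.01 ± 0.22, adjusted p = 0.00037). The ubiquitin editor A20 (Tnfaip3) had 10497 and 8983 at 6 h, against 4570 and 4287 at 0 h. Among 20 immediate early factors and phosphatases 1 was called, Atf3, a repressor of inflammatory genes (0.79 ± 0.16, adjusted p = 0.0164), a share near the 4.29% of all genes tested. Of 25 BCL2 family and death receptor genes 8 rose, among them Mlkl, the executor of necroptosis, with 4770 and 3772 at 6 h, against 1118 and 1242 at 0 h. Casp4, the mouse caspase-11 that senses cytosolic lipopolysaccharide, rose by 2.52 ± 0.27, and Cflar, an inhibitor of death receptor signalling, by 1.79 ± 0.17. Of 23 lineage factors 2 rose, Batf2 (2.80 ± 0.35) and Tcf4 (1.51 ± 0.23), where 4.29% of all genes tested were higher.

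Of the growth control genes, 6 of 24 G1 cyclins, CDK inhibitors and MYC network genes were higher and 1 lower, where 4.29% and 2.32% of all genes tested were. Mxd1, which competes with MYC for its partner MAX, had 3032 and 2202 at 6 h, against 147 and 214 at 0 h (3.75 ± 0.31, adjusted p = 4.29e-05). Myc had 517 and 433 at 6 h, against 781 and 727 at 0 h, and was not called (-0.65 ± 0.35, adjusted p = 0.321) although the arrays did not overlap. The CDK inhibitor Cdkn1a (1.55 ± 0.21) rose together with the cyclins Ccnd1 (1.59 ± 0.17) and Ccnd2 (2.11 ± 0.31), whose products drive entry into the cell cycle.

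The genes that fell included many of ribosome production. Of 59 ribosome biogenesis genes tested 14 were called lower, where 2.32% of all genes tested were. Their median was -0.80, against -0.15 for all genes. Their median log2 ratio of 6 h to 0 h was -0.85 in experiment 1 and -0.71 in experiment 2. For all genes tested it was -0.16 and -0.13. Gar1 and Dkc1 encode parts of the box H/ACA complex, which modifies ribosomal RNA. Gar1 had 354 and 301 at 6 h, against 1235 and 986 at 0 h (-1.71 ± 0.22, adjusted p = 0.00112), and Dkc1 had 161 and 174 at 6 h, against 738 and 548 at 0 h (-1.83 ± 0.25, adjusted p = 0.00181). Wdr12, needed for the large subunit, had 232 and 288 at 6 h, against 792 and 849 at 0 h (-1.61 ± 0.23), and Nip7 fell by 1.12 ± 0.19 on the log2 scale. The 6 h and 0 h arrays were apart for all 4 genes, as for most called genes, which is no separate support. The count of 14 depended on the arrays. It was 3 when either 0 h array was dropped, 2 when the 6 h array of experiment 1 was, 8 for that of experiment 2, 36 and 35 for the 24 h arrays, and 4 with no replicate block, while the median stayed between -0.92 and -0.65 in these fits and with centred arrays.

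The 15 largest falls held these further genes, whose roles are given as background. Ppan, which matures the large subunit, had 52.4 and 99.8 at 6 h, against 462 and 362 at 0 h (-2.26 ± 0.32, adjusted p = 0.00234), and it lost its call when the 0 h array of experiment 1 was dropped. Tsr1, needed for the small subunit, had 372 and 472 at 6 h, against 2004 and 1698 at 0 h (-2.10 ± 0.37, adjusted p = 0.00863). Polr3g, a subunit of RNA polymerase III, which makes 5S ribosomal RNA and tRNA, had 27.9 and 12.8 at 6 h, against 191 and 236 at 0 h (-2.68 ± 0.43). Snhg1, a host gene of small nucleolar RNAs, had 510 and 382 at 6 h, against 2061 and 1403 at 0 h (-1.91 ± 0.32). Nle1 (-2.03 ± 0.48) of the large subunit and Mrm3 (-1.86 ± 0.28), a methyltransferase of mitochondrial ribosomal RNA, were called lower as well.

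The deepest fall was that of Pms2, a mismatch repair protein, with 18.8 and 16.6 at 6 h, against 294 and 203 at 0 h (-2.95 ± 0.38, adjusted p = 0.00122). Its other probe set, with 67.5 and 69.2 at 6 h, against 86.2 and 144 at 0 h, was not called (-0.60 ± 0.45). Ctps, the enzyme that makes CTP, had 18.4 and 108 at 6 h, against 520 and 364 at 0 h (-2.79 ± 0.60, adjusted p = 0.0235). Atad3a, a mitochondrial membrane ATPase, had 467 and 475 at 6 h, against 1876 and 1851 at 0 h (-1.95 ± 0.22, adjusted p = 0.000482), with log2 differences of -1.49, -1.69 and -1.67 from its 3 other probe sets. The rest of the 15 were Fzd4 (-2.29 ± 0.43), a Wnt receptor, Samd5 (-2.14 ± 0.49), Pald1 (-2.14 ± 0.47), Armc6 (-1.99 ± 0.49) and Tmem216 (-1.90 ± 0.28). Most of these transcripts were dim at 6 h, where the added 16 weighs on the value. Of the 15 largest falls 3 kept their call in every alternative that tested them. The other 12 lost it in 1 to 14 of the 21 alternatives, Armc6 in 14, Nle1 in 13 and Samd5 in 9. Of the 36 named genes called lower 5 kept their call in every alternative that tested them, Atad3a, Dkc1, Gar1, Mrps18b and Pms2. Of the 133 named genes called higher 77 did. The filter at a mean signal of 200 or more tested 29 of the 36 and all of the 133.

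The proteins of the ribosome itself were counted in separate lists. Of 38 cytosolic ribosomal protein genes tested limma called none, with 1 higher and 2 lower at an unadjusted p under 0.05. Of 73 mitochondrial ribosomal protein genes 2 were called lower, where 2.32% of all genes tested were, with a median of -0.35. Of these Mrps18b had 556 and 612 at 6 h, against 1706 and 1762 at 0 h (-1.55 ± 0.20, adjusted p = 0.00119). Of 41 translation factors 4 fell, led by Eef1e1 (-1.13 ± 0.18), and of 31 aminoacyl-tRNA synthetases 2, Yars2 (-1.33 ± 0.26) and Farsb (-0.89 ± 0.17). Each call in these 2 lists was lost in 4 to 14 of the 21 alternatives, always including the fit with no replicate block. Of 40 genes of DNA replication 5 were called lower, with a median of -0.44, among them the helicase subunits Mcm3 (-1.18 ± 0.25), Mcm4 (-0.84 ± 0.20) and Mcm7 (-1.05 ± 0.24). With centred arrays 1 gene of this list was called, with no replicate block 0, and leaving out any 1 of the 4 arrays at 0 and 6 h also gave 0, while leaving out either 24 h array gave 13. Of 28 mitosis genes limma called none, with 1 higher at an unadjusted p under 0.05.

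Of 19 genes of glycolysis with Hif1a 3 rose, with a median of 0.04, and of 13 genes of arginine, prostaglandin and related immune enzymes 4 rose, with a median of -0.01, where 4.29% of all genes tested were higher. Of 23 genes of the TCA cycle with the itaconate enzyme 1 rose and 1 fell. The itaconate enzyme Acod1, whose product has antimicrobial action, was bright at 0 h and had 27282 and 31522 at 6 h, against 16539 and 10573 at 0 h (1.15 ± 0.22, adjusted p = 0.0124). Fumarase (Fh1) fell by 0.73 ± 0.18 on the log2 scale, though not under 12 alternatives. Of 46 genes of the respiratory chain and ATP synthase limma called none, also none at an unadjusted p under 0.05, and their differences lay between -0.31 and 0.14. Ch25h, which makes the antiviral oxysterol 25-hydroxycholesterol, had 6931 and 4234 at 6 h, against 788 and 1253 at 0 h (2.43 ± 0.29, adjusted p = 0.000606), while Fasn, the fatty acid synthase, had 189 and 233 at 6 h, against 855 and 544 at 0 h (-1.63 ± 0.31, adjusted p = 0.0121). Nos2, the inducible nitric oxide synthase, had 308 and 91.9 at 6 h, against 5.66 and 9.95 at 0 h (2.98 ± 0.54). Ptgs2, the inducible cyclooxygenase, had 2050 and 129 at 6 h, against 90.5 and 26.5 at 0 h (3.02 ± 0.65). Hmox1, a stress enzyme, had 9458 and 11218 at 6 h, against 7523 and 10425 at 0 h, and was not called (0.22 ± 0.19). Of 35 genes in the list of histone-modifying enzymes 2 rose and 1 fell. Phf11d, listed there though not known as such an enzyme, had 9482 and 7059 at 6 h, against 309 and 468 at 0 h. The methyltransferase Setdb2 encoded near it had 1783 and 1145 at 6 h, against 384 and 415 at 0 h. The demethylase Kdm2b fell by 1.10 on the log2 scale. Of 32 genes of the unfolded protein response 1 fell, Herpud1 (-0.93). The counts for the TCA cycle, histone-modifying and unfolded protein lists are near the shares of all genes tested, 4.29% higher and 2.32% lower. Of 31 constitutive proteasome genes limma called none, with 2 higher at an unadjusted p under 0.05.

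**Figure D3:**
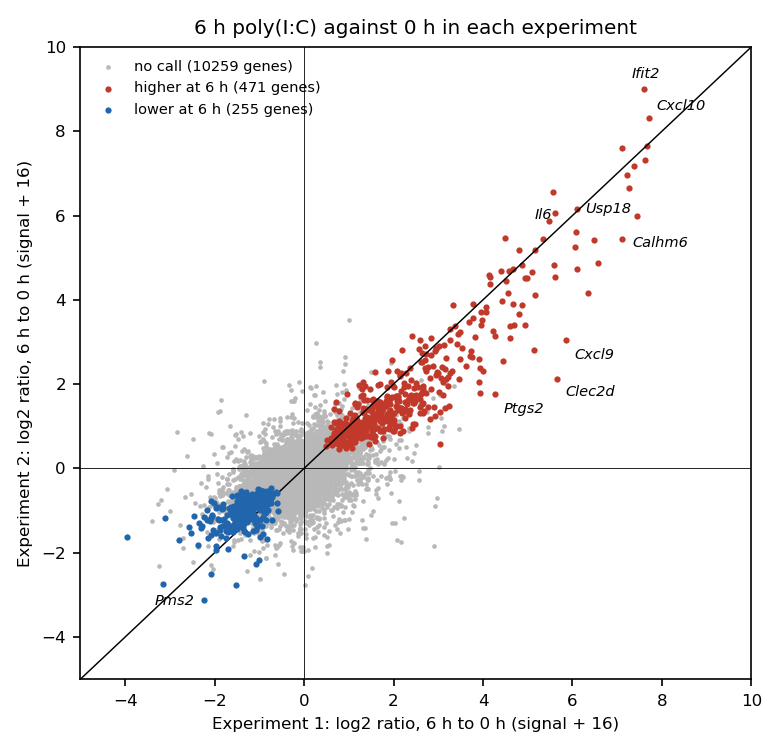
Log2 ratio of 6 h to 0 h in experiment 1 (horizontal) and experiment 2 (vertical) for each of 10985 genes (red, 471 called higher, blue, 255 called lower, grey, no call, diagonal, equal ratios). Genes such as Usp18 (6.11 and 6.15) lie on the diagonal, while Clec2d (5.66 and 2.12), Cxcl9 (5.86 and 3.04) and Ptgs2 (4.28 and 1.77) lie below it.

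The ratios of the experiments had a Pearson correlation of 0.74 across 10985 genes, which are not independent and share the arrays. Most called genes differed more in experiment 1. Of the 471 genes called higher, 372 had the larger ratio in experiment 1 (79%), compared with 47.6% of all genes tested, and their median ratio was 1.76 in experiment 1 and 1.35 in experiment 2. Of the 255 genes called lower, 206 fell further in experiment 1. The gap varied between the lists. Co-stimulatory molecules had a median ratio of 2.02 in experiment 1 and 0.93 in experiment 2, and TRIM ligases 1.24 and 0.36, whereas the antiviral effectors had 3.37 and 2.98 and the sensors 0.99 and 0.89. In 7 genes called higher the experiments differed by over 2 log2 units, each time with the larger ratio in experiment 1. These genes, picked after their values were seen, were Clec2d, Cxcl9, Ptgs2, Rab5c, Il15, Ifi213 and Gm11772. Fscn1, an actin bundler of mature DC, had 6737 and 638 at 6 h, against 741 and 225 at 0 h, so its 6 h signal in experiment 2 was below the 0 h signal in experiment 1. According to the methods, the experiments were done months apart, and their arrays were hybridised and normalized separately. Mouse, date and array run therefore cannot be told apart. With 1 mouse per experiment, the difference between the experiments was not tested.

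The neighbouring times show where 6 h stands in the course. In the same fit, 74 genes (0.674%) were higher at 6 h than at 3 h and 12 (0.109%) were lower. Against 12 h, 154 genes (1.4%) were higher at 6 h and 87 (0.792%) were lower. These comparisons share the 6 h arrays. Among the genes called, the interferon-alpha genes differed most from 3 h. Ifna2 had 2395 and 857 at 6 h, against 20.7 and 7.54 at 3 h (5.63 ± 0.67, adjusted p = 0.0078), and Ifna4 had 1384 and 730 at 6 h, against 50 and 6.75 at 3 h (4.72 ± 0.59, adjusted p = 0.00911). Irf7 had 10751 and 7614 at 6 h, against 2958 and 2139 at 3 h (1.84 ± 0.31, adjusted p = 0.0337). Ifit3 (1.91), Usp18 (1.17), Tlr3 (2.28), Ddx58 (1.51) and Tap1 (1.19) were above their 3 h level too. By contrast Ifit1 (0.67, adjusted p = 0.434), Cxcl10 (0.23) and Il6 (0.78) were not called against 3 h, nor was Ifnb1, with 4588 and 1875 at 6 h, against 522 and 213 at 3 h (3.07 ± 0.89, adjusted p = 0.238). Of the genes lower at 6 h than at 3 h, Ppan (-1.84), Atad3a (-1.50), Dkc1 (-1.43), Gar1 (-1.39) and Mrps18b (-1.09) have been named above.

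Set against 12 h, Nos2 was the called gene furthest below its later level, with 308 and 91.9 at 6 h, against 1880 and 4236 at 12 h (-3.93 ± 0.54, adjusted p = 0.0139). Cd86 had 4327 and 1944 at 6 h, against 11105 and 7668 at 12 h (-1.66 ± 0.23, adjusted p = 0.0139), and the prostaglandin synthase Ptges stood 2.04 log2 units lower at 6 h than at 12 h. Isg20, an exonuclease of RNA picked after its values were seen, had 4781 and 2471 at 6 h, against 13606 and 15754 at 12 h (-2.09 ± 0.37, adjusted p = 0.0301). Of the 154 genes higher at 6 h than at 12 h, 38 were called lower at 6 h than at 0 h and 116 had no call against 0 h. Ribosome biogenesis genes were higher at 6 h than at 12 h in 11 of 59 cases, among them Dkc1 (1.5), Gar1 (1.42) and Wdr12 (1.41), and DNA replication genes in 8 of 40. Myc, not called against 0 h, was higher at 6 h than at 12 h, with 517 and 433, against 229 and 70.5 at 12 h (1.75 ± 0.35, adjusted p = 0.0393). No gene was called higher at 6 h than at both 3 h and 12 h by limma, and 14 were so at an unadjusted p under 0.05. Lower than at both times were 34 genes at an unadjusted p under 0.05 and 1 by adjusted p, Edn3, which encodes the peptide endothelin 3, with 130 and 136 at 6 h, against 395 and 494 at 3 h (-1.62 ± 0.25). At 12 h its signal was 359 and 283, so that 6 h stood below it as well (-1.17 ± 0.25), while against 0 h, with 162 and 156, it was not called (-0.23, adjusted p = 0.637).

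**Figure D4:**
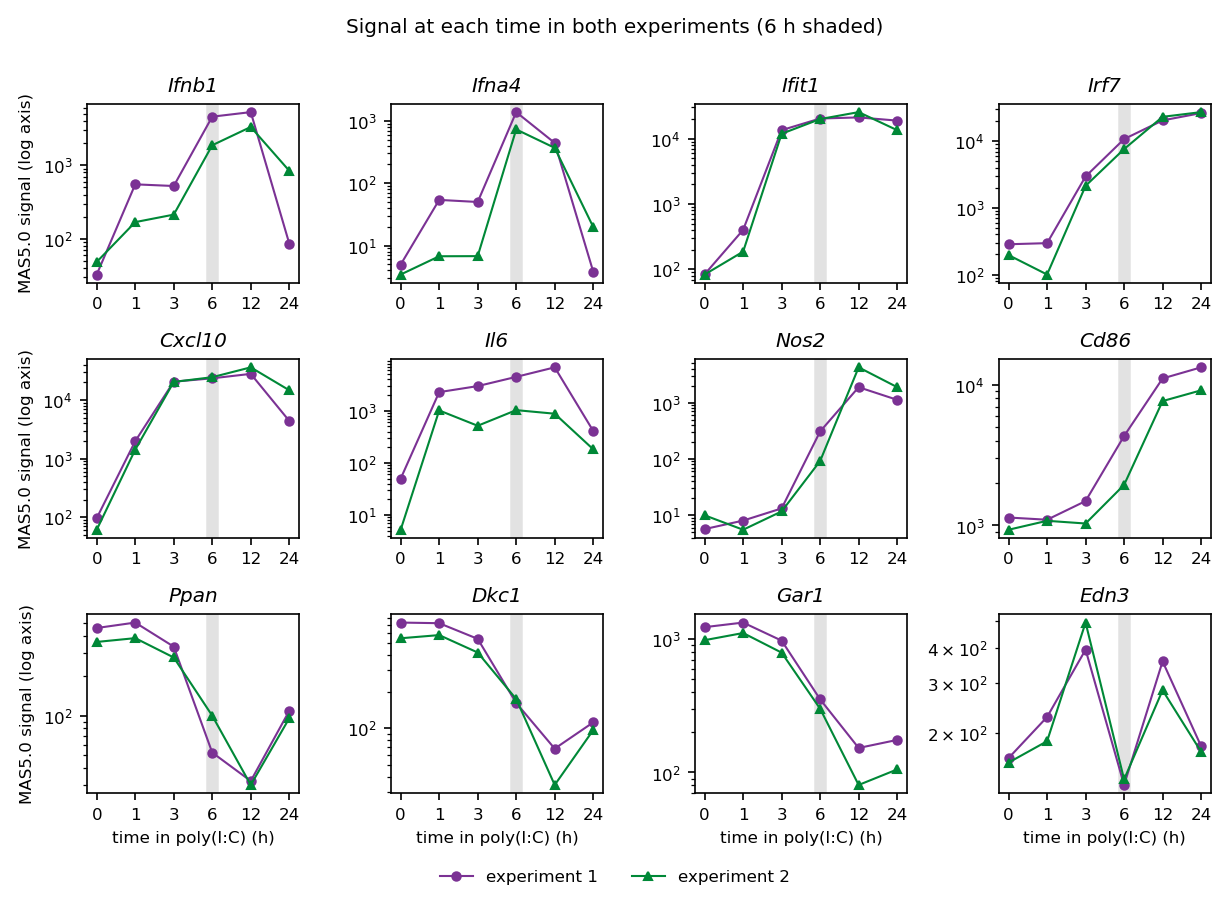
MAS5.0 signal on a log axis over the 6 times from 0 to 24 h of 12 genes in experiment 1 (purple circles) and experiment 2 (green triangles), with 6 h shaded. Ifna4 was higher at 6 h than at 3 h, while Ifit1 and Cxcl10 had no call between these times. Nos2 and Cd86 were higher at 12 h than at 6 h, and Ppan, Dkc1 and Gar1 were lower at 12 h than at 6 h.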

How the data were processed

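RNA of 12 cultures, 2 at each of 6 times, was hybridised to 1 Affymetrix Mouse 430 2.0 array each. The deposited intensity values are MAS5.0 signals that the authors scaled to a trimmed mean of 500 per array, and the detection calls of that software were not used here. The table holds 45101 probe sets, of which 64 are controls. Of the other 45037, 34945 carry 1 gene symbol in the platform annotation, 932 several and 9160 none, and only those with 1 were named, with symbols updated through RefSeq.

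All 12 arrays entered 1 limma model (version 3.58.1, R 4.3.3) of log2(signal + 16), in which time was the factor and experiment the replicate block, moderated by empirical Bayes with an intensity trend (5 residual and 5.24 prior degrees of freedom). Probe sets whose mean signal did not reach the median over all of them were left out, and Benjamini-Hochberg adjustment ran over the 22519 that remained. A gene is represented by its brightest probe set. Arrays of 1 experiment come from 1 mouse, and their deviations from the time means correlated at r = 0.256 to 0.66 in all 15 pairs of times, across probe sets. On simulated data (5 runs), the fit found 60.8% of the probe sets changed 4-fold and 15.8% of those changed 2-fold, with 4.74% false among its calls. The simulated noise was independent and had the same spread at all times for a given probe set. Only 6 h was changed, in 100 probe sets of each size. The real counts moved with the arrays in the fit, so the 4.74% is no measure of false calls in the real data. Tables and figures were made with Python 3.11.15, pandas 2.3.3, numpy 2.4.6 and matplotlib 3.10.9.

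The text names the 15 largest rises and falls by gene that moved the same way in both experiments, up to 4 called members per list with the smallest p, a panel of 28 genes, genes beyond both neighbouring times, and members of lists of 20 or fewer genes. Members and lists were chosen with earlier results of these data known. Of 1205 list entries, 1106 matched a probe set with 1 gene. Alternatives were pseudocounts of 1 and 64, other filters and scalings, no replicate block, no trend, the 4 arrays alone, a 2-fold limit, each array left out and other probe sets. Some genes of the pathways are not reported here.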

Additional observations from a re-analysis of the deposited data

How the results depend on the processing

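The count of 815 probe sets higher and 438 lower at 6 h than at 0 h became 350 and 44 with no replicate block, and 1484 and 2013 with only the 4 arrays at 0 and 6 h. Median-centred arrays left 245 lower, no filter 226 and no trend 287, while the count of rises stayed within 1.5 times under these settings. Leaving out 1 array gave between 307 and 1563 rises and between 19 and 2171 falls. Rises numbered 350 and 525 without the 0 h array of experiment 1 and 2, 307 and 505 without the 6 h arrays, and 1555 and 1563 without the 24 h arrays. Falls were 19 and 50 without the 0 h arrays, 24 and 141 without the 6 h arrays, 236 and 233 without the 1 h arrays, 190 and 187 without the 3 h arrays, and 2140 and 2171 without the 24 h arrays. Where an array at 0 or 6 h is left out, the lone array is assumed to vary like the others. The cause of these shifts was not tested. With a 2-fold limit 671 were higher and 295 lower. Of 133 named genes called higher, 43 lost their call with no replicate block and 50 without the 6 h array of experiment 1, and of 36 called lower 22 and 28 did. None of these called genes changed direction in any fit, and named genes without a call were not followed through the settings. Other probe sets of 2 genes called lower had a difference of 0.03, those of Ccr2 and Mcm3. The dimmest transcripts at 6 h have signals near background, and their differences are bounded by the added 16.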
